A study of Mus musculus with 4 samples.

Results

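Of the 31053 genes in the deposited matrix, 5 are described here: Tcf7l2, Lef1, Tcf7l1 and Tcf7, which encode the TCF/LEF transcription factors, and Rnf220, which encodes a ubiquitin ligase. They were taken by symbol, and all 5 were found. They were chosen by their levels in these same data, namely the steps between stages in excitatory and inhibitory neurons, so those levels are given as a description and no test was made on them.

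The data are single-nucleus RNA sequencing of the superior colliculus, a midbrain centre for visual and other sensory input, from C57BL/6J mice at embryonic day 19 (E19) and postnatal days 4, 8 and 21 (P4, P8 and P21). Each stage was 1 library of pooled tissue from several animals with no treatment and no altered genotype named, and the 4 libraries held 2585, 2386, 2504 and 2249 nuclei in that order. The design text abbreviates the embryonic day in another way than the sample title, and the title's E19 is used here. With 1 library per stage, a difference between stages is a difference between 2 libraries, and every interval given is a 95% interval for counting error only. The libraries held 19277512 to 31325079 UMIs, with a median of 6828 to 11745 per nucleus, so the later stages were read more deeply, and 9 barcodes occurred in more than 1 library.

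TCF/LEF proteins are the DNA-binding end of canonical Wnt signalling. Without a Wnt signal they sit on target genes together with Groucho/TLE repressors. When Wnt ligands engage Frizzled and LRP receptors, the complex that destroys β-catenin is held back, and β-catenin enters the nucleus and turns TCF/LEF proteins into activators. Tcf7l2 is known for its role in thalamic and midbrain neurons and in the differentiation of oligodendrocytes, Lef1 as both an effector and a target of the pathway, and Tcf7l1 mostly as a repressor. Rnf220 encodes a RING-type E3 ligase described as stabilising β-catenin together with the deubiquitinase Usp7, and as acting on patterning factors of the neural tube with its partner Zc4h2.

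The genes are long, and the authors' reference was built from pre-mRNA, so intronic reads entered the counts. In GENCODE M21 on GRCm38 (mm10), Tcf7l2 (ENSMUSG00000024985) lies on the plus strand at chr19:55741820-55933654, and Lef1 (ENSMUSG00000027985) on the plus strand at chr3:131110471-131224356. Tcf7l1 (ENSMUSG00000055799) lies on the minus strand at chr6:72626378-72789254, Tcf7 (ENSMUSG00000000782) on the minus strand at chr11:52252371-52283014, and Rnf220 (ENSMUSG00000028677) on the minus strand at chr4:117271463-117497052. Tcf7 shares its strand and place with Gm26551, so UMIs (unique molecular identifiers, each counting 1 captured RNA molecule) of the pair may be shared. Levels were not compared between genes, because longer genes yield more intronic UMIs.

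Promoter sequence was looked at because TCF/LEF factors are known to bind a short core and Lef1 is a known target of its own pathway. RefSeq windows of 250 bases before a start site (build GRCm38.p6) were searched on both strands for 4 forms of the core. Its forms are CTTTGAA and CTTTGAT, as well as CTTTGTA and CTTTGTT. Of 32851 windows of that length, 4874 (14.8%) held 1 or more, and 2 of the 10 windows of the 5 genes did. Those 2 lie before internal starts of Tcf7l2 and Lef1, and they are shown here with the Tcf7l2 window at its first start, which holds none. Capitals mark the core, and all 3 are on the plus strand.
Tcf7l2, first start, chr19:55741560-55741809: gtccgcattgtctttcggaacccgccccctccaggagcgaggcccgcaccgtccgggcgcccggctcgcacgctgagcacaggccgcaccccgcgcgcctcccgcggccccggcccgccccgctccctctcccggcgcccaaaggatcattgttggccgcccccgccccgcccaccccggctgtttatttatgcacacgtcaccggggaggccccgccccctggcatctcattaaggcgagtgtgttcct
Tcf7l2, internal start, chr19:55895071-55895320: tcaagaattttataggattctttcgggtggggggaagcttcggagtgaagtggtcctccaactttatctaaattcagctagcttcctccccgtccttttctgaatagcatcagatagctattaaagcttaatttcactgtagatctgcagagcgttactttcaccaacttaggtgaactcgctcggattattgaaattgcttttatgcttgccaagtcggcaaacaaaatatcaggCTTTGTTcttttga
Lef1, internal start, chr3:131156044-131156293: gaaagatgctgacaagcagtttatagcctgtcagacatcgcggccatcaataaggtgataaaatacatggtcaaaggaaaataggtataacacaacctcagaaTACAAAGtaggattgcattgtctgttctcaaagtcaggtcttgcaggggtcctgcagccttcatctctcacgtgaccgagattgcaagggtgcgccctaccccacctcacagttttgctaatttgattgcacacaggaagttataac
The core in the internal Tcf7l2 window is CTTTGTT, starting 14 bases before the transcription start, and that in the Lef1 window is TACAAAG, the reverse complement of CTTTGTA, starting 147 bases before it. None of the windows of Rnf220, Tcf7l1 and Tcf7 held the core. The only Rnf220 window lay before an internal start at chr4:117375461, while the gene begins at 117497052 on the minus strand. The sequence before the first start of Rnf220 was thus not searched. The deposited counts join all starts of a gene, so they do not show which start was used.

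Tcf7l2 was present in neurons and in every non-neuronal class, and its level in both neuron classes was lower at P8 than at P4. Levels are given as CPM, the UMIs of a gene per 1000000 UMIs of the same nuclei. The excitatory class held 880, 775, 228 and 197 CPM at E19, P4, P8 and P21, and the inhibitory class 160, 337, 26.7 and 57.9 CPM. Both early stages therefore lay above both later stages in each class, and inhibitory neurons were highest at P4. The P4 level was 3.40-fold the P8 level in excitatory neurons, a log2 ratio of CPM + 5 of -1.74 (-1.80 to -1.69), and 12.6-fold in inhibitory neurons, a log2 ratio of -3.43 (-3.58 to -3.28).

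Tcf7l2 in most non-neuronal classes had a smaller step from P4 to P8. Astrocytes held 951, 953, 816 and 729 CPM at the 4 stages, and that step was -0.22 (-0.35 to -0.10). Endothelial cells held 306, 458, 469 and 352 CPM, and vascular leptomeningeal cells 341, 546, 449 and 496 CPM. Microglia held 425, 386, 395 and 324 CPM on 13 to 33 nuclei, with overlapping intervals at all 4 stages. Among dividing cells it was 816, 716, 386 and 233 CPM, the largest non-neuronal step from P4 to P8, at -0.88 (-1.29 to -0.46).

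**Figure D1:**
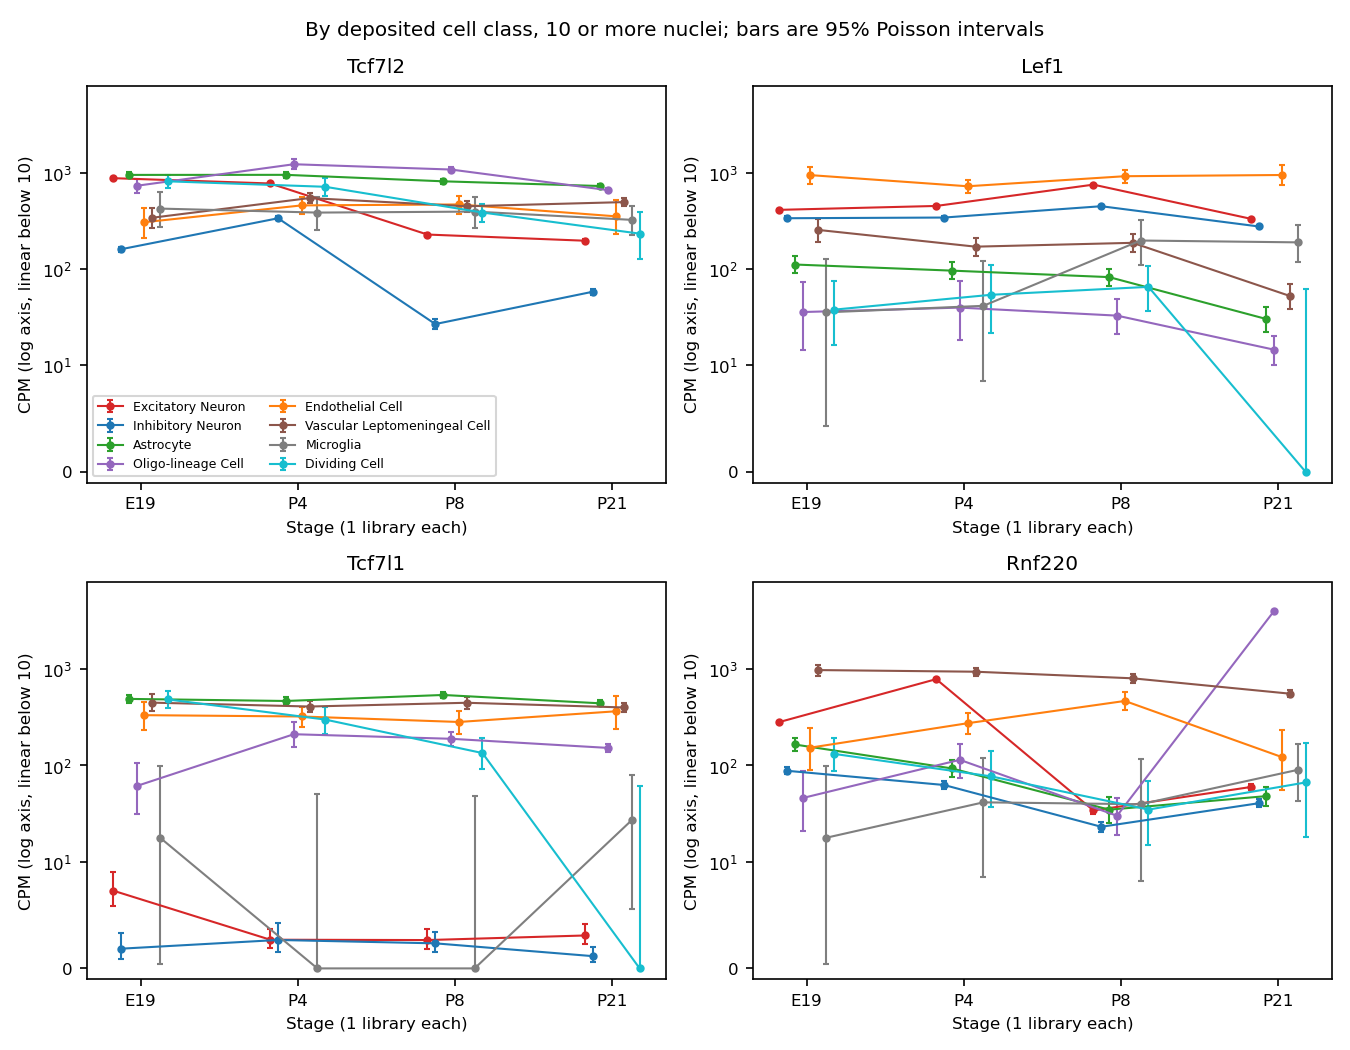
Level of Tcf7l2, Lef1, Tcf7l1 and Rnf220 (CPM, log axis that is linear below 10) against stage in the deposited classes with 10 or more nuclei; each point is 1 library and each bar a 95% Poisson interval. Tcf7l2 is lower at P8 and P21 than at E19 and P4 in both neuron classes, Tcf7l1 is below 10 CPM in neurons and 283 or more in astrocytes, endothelial and leptomeningeal cells, and Rnf220 reaches 4060 CPM in the oligodendrocyte lineage at P21.

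Lef1, whose product is the other neuronal TCF/LEF factor here, followed a different course. The excitatory class held 412, 452, 753 and 333 CPM and the inhibitory class 337, 343, 449 and 277 CPM. P8 was the highest and P21 the lowest stage in both classes, each with an interval apart from those of the other stages. The log2 ratio from P4 to P8 was 0.73 (0.69 to 0.78) in excitatory and 0.39 (0.31 to 0.46) in inhibitory neurons, and from P8 to P21 it was -1.17 (-1.22 to -1.12) and -0.69 (-0.75 to -0.62). Outside neurons Lef1 was highest in endothelial cells, at 946, 725, 922 and 949 CPM on 12 to 22 nuclei per library. The 2 or 3 endothelial nuclei with most Lef1 UMIs held 46.7%, 65.1%, 61.5% and 71.4% of them. At P21, 6 of 12 endothelial nuclei had none. Astrocytes went from 111 CPM at E19 to 30.1 CPM at P21, and vascular leptomeningeal cells from 255 to 52.3 CPM. Microglia held 35.4 CPM at E19 and 41.3 CPM at P4, from 2 and 3 UMIs, and 198 and 189 CPM at P8 and P21.

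Rnf220 in excitatory neurons was dominated by 1 subtype. The class stood at 282, 790, 34.0 and 59.6 CPM, with a log2 ratio of 1.47 (1.41 to 1.53) from E19 to P4 and of -4.35 (-4.47 to -4.23) from P4 to P8. Without the subtype the authors called EN7, the same class stood at 120, 73.3, 34.1 and 56.3 CPM. The step from E19 to P4 then turned to -0.67 (-0.79 to -0.56), and that from P4 to P8 was -1.0 (-1.15 to -0.86). Inhibitory neurons held 88.1, 62.6, 23.0 and 40.4 CPM. Outside neurons, 2 classes stood high: vascular leptomeningeal cells at 982, 944, 806 and 558 CPM, and the oligodendrocyte lineage, which went from 30.0 CPM at P8 to 4060 CPM at P21.

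Tcf7l1 and Tcf7 were low in both neuron classes. Tcf7l1 stood at 7.28, 2.69, 2.65 and 3.08 CPM in excitatory and at 1.85, 2.66, 2.35 and 1.15 CPM in inhibitory neurons. EN11 at E19 stood apart, at 66.9 CPM (49.0 to 89.2), from 46 UMIs that lay in 4 of 84 nuclei. At P21 the 9 EN11 nuclei, too few for a level here, gave 31 of the 45 Tcf7l1 UMIs of excitatory neurons (68.9%). Tcf7l1 in astrocytes stood at 492, 468, 541 and 443 CPM. In vascular leptomeningeal cells it stood at 450, 410, 449 and 401 CPM, and in endothelial cells at 333, 323, 283 and 366 CPM. Each of these 3 classes thus kept to a narrow range over the stages. Dividing cells went from 486 CPM at E19 to 135 CPM at P8, and no UMI was seen in the 10 nuclei of P21, which allows up to 49.9 CPM. Tcf7, best known from T cells, was below 1 CPM in both neuron classes at the 4 stages. Endothelial cells held 9.01, 13.1, 30.9 and 13.6 CPM, from 1 to 6 UMIs per library, and its level was not measurable beyond that at this depth.

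Against all genes, steps of this size in neurons were uncommon between neighbouring stages. A gene was counted where the higher stage had 20 CPM or more and the log2 ratio of CPM + 5 was 1 or more in size, that is 2-fold. In excitatory neurons from E19 to P4, 1 of the 3 members that reached 20 CPM was higher (Rnf220), against 0.472% of 7415 genes, and 0 were lower, against 0.701%. From P4 to P8, 2 were lower (Tcf7l2 and Rnf220), against 0.832%, and 0 higher, against 0.361%. From P8 to P21, 1 was lower (Lef1), against 3.2%, and 0 higher, against 2.15%. Without EN7 the step from E19 to P4 held 0 members in either direction, against 0.296% higher and 0.66% lower, and that from P4 to P8 held the same 2 lower, against 0.598%, and 0 higher, against 0.223%, with Rnf220 at -1.0 on the threshold.

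In inhibitory neurons from E19 to P4, 1 of 3 was higher (Tcf7l2), against 0.436%, and 0 lower, against 0.582%. From P4 to P8, 2 were lower (Tcf7l2 and Rnf220, the latter not above the free-RNA reference in any inhibitory subtype at P4, as given further on), against 0.382%, and 0 higher, against 0.136%. From P8 to P21, 0 passed in either direction, against 2.62% higher and 3.28% lower. Since the members were chosen for these very steps, their counts carry no support beyond the description.

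The make-up of the neuron classes differed between libraries, so a class value also depends on which subtypes its nuclei came from. EN1, EN2 and EN7 held 38.4%, 21.4% and 2.47% of excitatory nuclei at E19 and 34.7%, 8.87% and 15.8% at P4, but 15.1%, 5.07% and 0.12% at P8. EN5, EN6 and EN9 went the other way, from 3.81%, 3.40% and 2.57% at P4 to 11.9%, 11.6% and 9.0% at P8. IN1 held 29.8% and 27.8% of inhibitory nuclei at E19 and P4 and 4.78% and 9.46% at P8 and P21. With 1 library per stage, a difference in the tissue and a difference in its dissection cannot be told apart.

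With the P4 share of each subtype used at both stages and EN7 left out, the step of Tcf7l2 from P4 to P8 in excitatory neurons was -1.06 in place of -1.74. With every subtype weighted alike it was -0.83. For Lef1 the same weightings gave 0.43 and -0.01 in place of 0.73, so the higher P8 level of the class did not stand when subtypes counted alike. For Rnf220 they gave -0.67 and -0.33 in place of -4.35. In inhibitory neurons the P4 to P8 step of Tcf7l2 was -2.33 under either weighting and -2.32 without IN1, in place of -3.43, while its step from E19 to P4 was 0.05 without IN1 in place of 1.05.

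**Figure D2:**
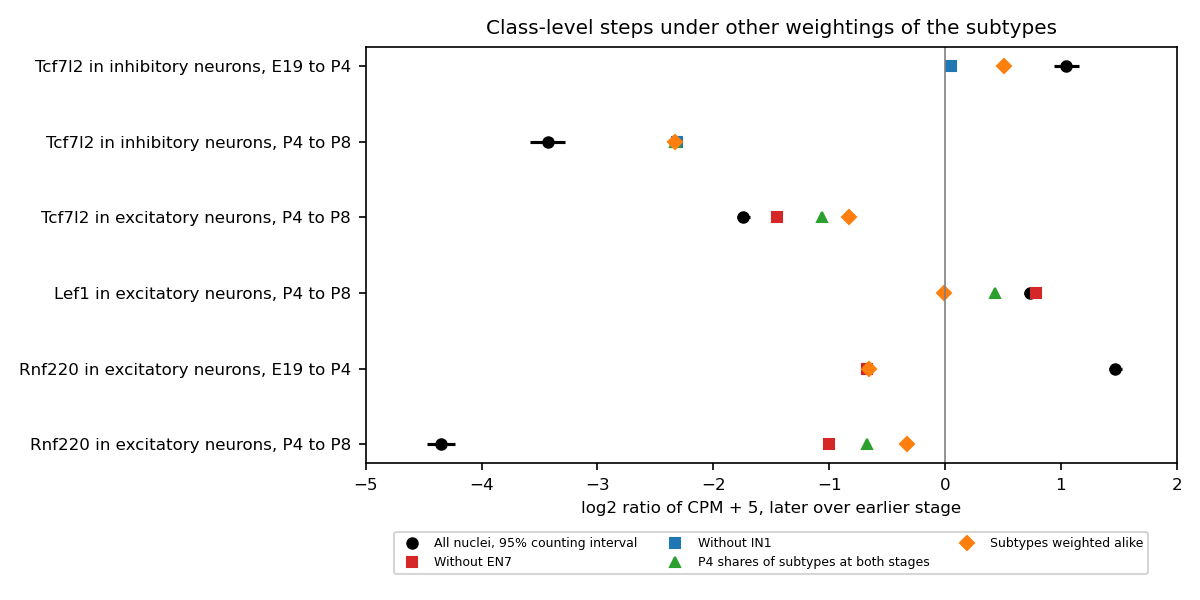
Log2 ratio of CPM + 5, later over earlier stage, for 6 steps of Tcf7l2, Lef1 and Rnf220 in a neuron class; black circles are all nuclei with the 95% counting interval, and the other signs leave out EN7 or IN1 or change the weight of the subtypes. The Rnf220 step from E19 to P4 lies at 1.47 with all nuclei and at -0.67 without EN7, and the Tcf7l2 steps from P4 to P8 stay below 0 under each weighting drawn.

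Within subtypes Tcf7l2 was again lower at P8 than at P4. Of 11 excitatory subtypes with 20 or more nuclei at both stages, 10 were lower beyond the counting interval and 0 higher, with a median log2 ratio of -1.46. All 12 inhibitory subtypes were lower, with a median of -2.25. Many of these levels were no higher than free RNA could give, as measured further on. Among subtypes above that reference at P4, 6 of 7 excitatory were lower, with a median of -0.69, and 3 of 3 inhibitory, with a median of -2.35, a choice of subtypes that itself uses the P4 level and was made after seeing the data. EN1, the subtype with the most nuclei at E19 and P4, stood at 723, 761, 273 and 219 CPM. EN2 stood at 1976, 1238, 764 and 396 CPM and EN3 at 1163, 991, 761 and 516 CPM, each lower at every step. EN8 was the exception at P8, at 136, 189, 164 and 87.3 CPM.

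The order of excitatory subtypes by Tcf7l2 was similar at the 4 stages. EN7, EN2, EN3 and EN1 came first at E19 and P4, in that order and with separate intervals, and the same without EN7 at P8, where EN2 and EN3 did not differ beyond their intervals. At P21 EN3 stood above EN2 and EN2 above EN1. EN4, EN5, EN6 and EN13 came last in all 4 libraries. These 4 stood between 47.9 and 88.9 CPM at E19 and P4 and between 5.41 and 15.9 CPM at P8 and P21, and none of them was separated from the next of the 4 by its interval.

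In inhibitory neurons Tcf7l2 was carried by IN1. That subtype stood at 240, 706, 135 and 310 CPM and gave 58.8%, 79.2%, 35.1% and 70.9% of the class's Tcf7l2 UMIs. IN4 followed at 187, 213, 74.4 and 89.0 CPM, and IN10 reached 250 CPM at P4 but 68.9, 14.7 and 8.84 CPM at the other stages. Within IN1 the UMIs were unevenly spread: 152 of 266 nuclei at E19 and 38 of 52 at P8 had none, and the 6 nuclei with most Tcf7l2 UMIs held 90.4% of the subtype's UMIs at P8. At P4, when 63 of 205 nuclei had none, the 21 highest held 38.8%.

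The low values are close to what free RNA in the suspension could give. Slc17a6, the vesicular glutamate transporter that inhibitory neurons should lack, stood in inhibitory neurons without IN1 at 25.4%, 23.5%, 20.2% and 9.56% of its level over the whole library. Tcf7l2 in the same nuclei stood at 16.8%, 17.1%, 9.0% and 8.66% of its own library level, below Slc17a6 at every stage. Taken by subtype, Tcf7l2 exceeded that reference only in IN1 and IN4, and in IN10 at P4. It was at or below the reference in 9 of 12 inhibitory subtypes at P4 and in 10 of 12 at the other 3 stages. The library level of Tcf7l2 was itself 647, 658, 207 and 224 CPM, and the part of free RNA in the lower P8 values was not tested.

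Among excitatory subtypes the reference was Gad2, a GABA-synthesis enzyme, at 12.6%, 13.9%, 6.37% and 11.6% of its library level. Tcf7l2 was at or below it in 4 of 13 subtypes at E19 and at P4, in 2 of 11 at P8 and in 4 of 11 at P21, all among EN4, EN5, EN6 and EN13. Lef1 was above the reference in all excitatory subtypes except EN2 at E19, and in inhibitory subtypes it was at or below it only in IN1 and IN12.

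**Figure D3:**
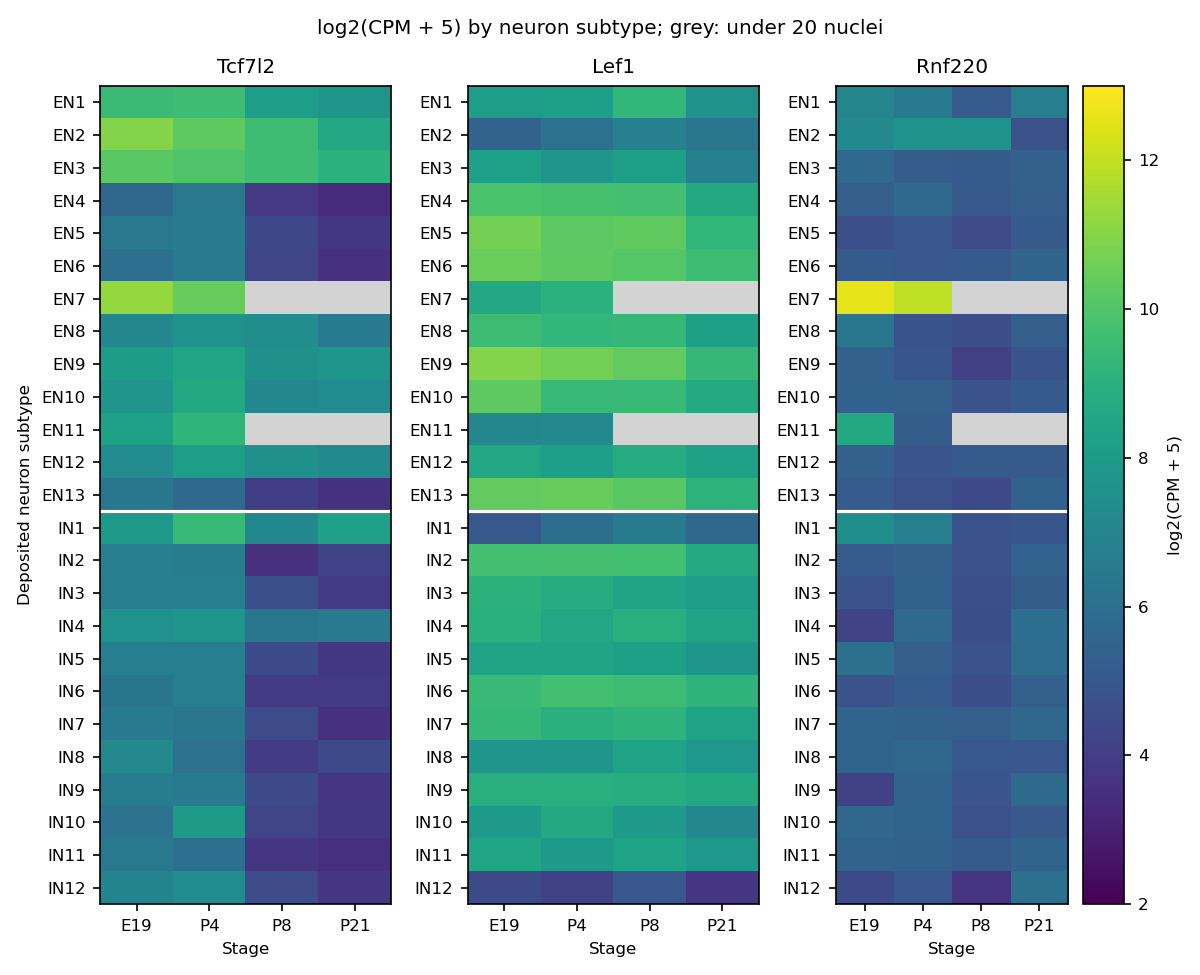
Heat maps of log2(CPM + 5) of Tcf7l2, Lef1 and Rnf220 in the 13 excitatory (EN) and 12 inhibitory (IN) subtypes, rows, at 4 stages, columns, with 1 library per column and grey for fewer than 20 nuclei. Tcf7l2 is highest in EN2, EN3 and EN7, Lef1 is highest in EN9 at E19, at 1979 CPM, and Rnf220 is highest in EN7 at 6131 and 3921 CPM.

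Lef1 was highest in EN9 and in 3 of the 4 excitatory subtypes with least Tcf7l2. EN9 stood at 1979, 1625, 1302 and 642 CPM, EN5 at 1650, 1211, 1253 and 617 CPM, EN6 at 1422, 1214, 1090 and 737 CPM, and EN13 at 1291, 1377, 1156 and 543 CPM. EN4, the fourth of those with little Tcf7l2, stood at 933, 885, 827 and 409 CPM. EN2 was lowest in each library, at 41.0, 65.1, 106 and 75.6 CPM. The intervals of the 4 highest overlapped with their neighbours' at E19. Of 11 excitatory subtypes, 10 were lower at P21 than at P8 beyond the counting interval, with a median of -1.01, and so were 10 of 12 inhibitory subtypes, with a median of -0.52.

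From P4 to P8 the subtypes of Lef1 did not move as their class did. Only 4 of 11 excitatory subtypes were higher (EN1, EN2, EN3 and EN12), 2 were lower, and the median was 0.05. EN1 had the largest rise, from 289 to 610 CPM, and returned to 197 CPM at P21. Among inhibitory subtypes 3 of 12 were higher and 2 lower, and the class without IN1 went from 515 to 476 CPM. IN2 stood at 830, 848, 812 and 415 CPM and IN6 at 686, 807, 735 and 566 CPM, while IN1 held 28.1, 57.7, 88.2 and 46.7 CPM and IN12 8.33 to 26.5 CPM.

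Across excitatory subtypes Tcf7l2 and Lef1 ran opposite to each other in each library. Pearson's r of log2(CPM + 5) was -0.71, -0.73, -0.76 and -0.73 over 13, 13, 11 and 11 subtypes. Without EN7 it was -0.77 at E19 and -0.81 at P4. Spearman's rho was -0.63, -0.73, -0.72 and -0.64. Across the 12 inhibitory subtypes r was weaker, at -0.51, -0.44, -0.37 and -0.24, and rho was -0.36, -0.21, -0.32 and 0.06. Tcf7l2 in EN4, EN5, EN6 and EN13 lay near or below the free-RNA reference, so their order by Tcf7l2 may not be their own. These values describe the subtypes, which share a library, and no p-value was computed. EN9 and EN10 depart from the pattern, with Lef1 at 1979 and 1220 CPM and Tcf7l2 at 261 and 209 CPM at E19, and EN7 carried both at P4, with Lef1 at 524 CPM and Tcf7l2 at 1392 CPM.

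Joint detection was counted within subtypes. After each nucleus was thinned to 2300 UMIs, 15.4% of EN1 nuclei at E19 had a UMI of both genes, against 16.4% from the product of the single shares. At P4, P8 and P21 the values were 18.6% against 23.1%, 16.8% against 23.8%, and 7.97% against 11.2%. The share with both was thus below the product in EN1 at all 4 stages, and so it was in EN3, at 25% against 30%, 19.7% against 21.4%, 26.6% against 32.5%, and 11.1% against 14.3%. The other subtypes counted were mixed. IN1 at P4 was above the product, at 5.37% against 4.57%, and EN2 at E19 about equal, at 6.97% against 6.93%. Both were below it at their other stages. EN7 equalled the product at E19, where all its nuclei had Tcf7l2, and stood at 51.31% against 51.33% at P4. A nucleus with no UMI may still express the gene, so these shares set no limit on separate use.

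**Figure D4:**
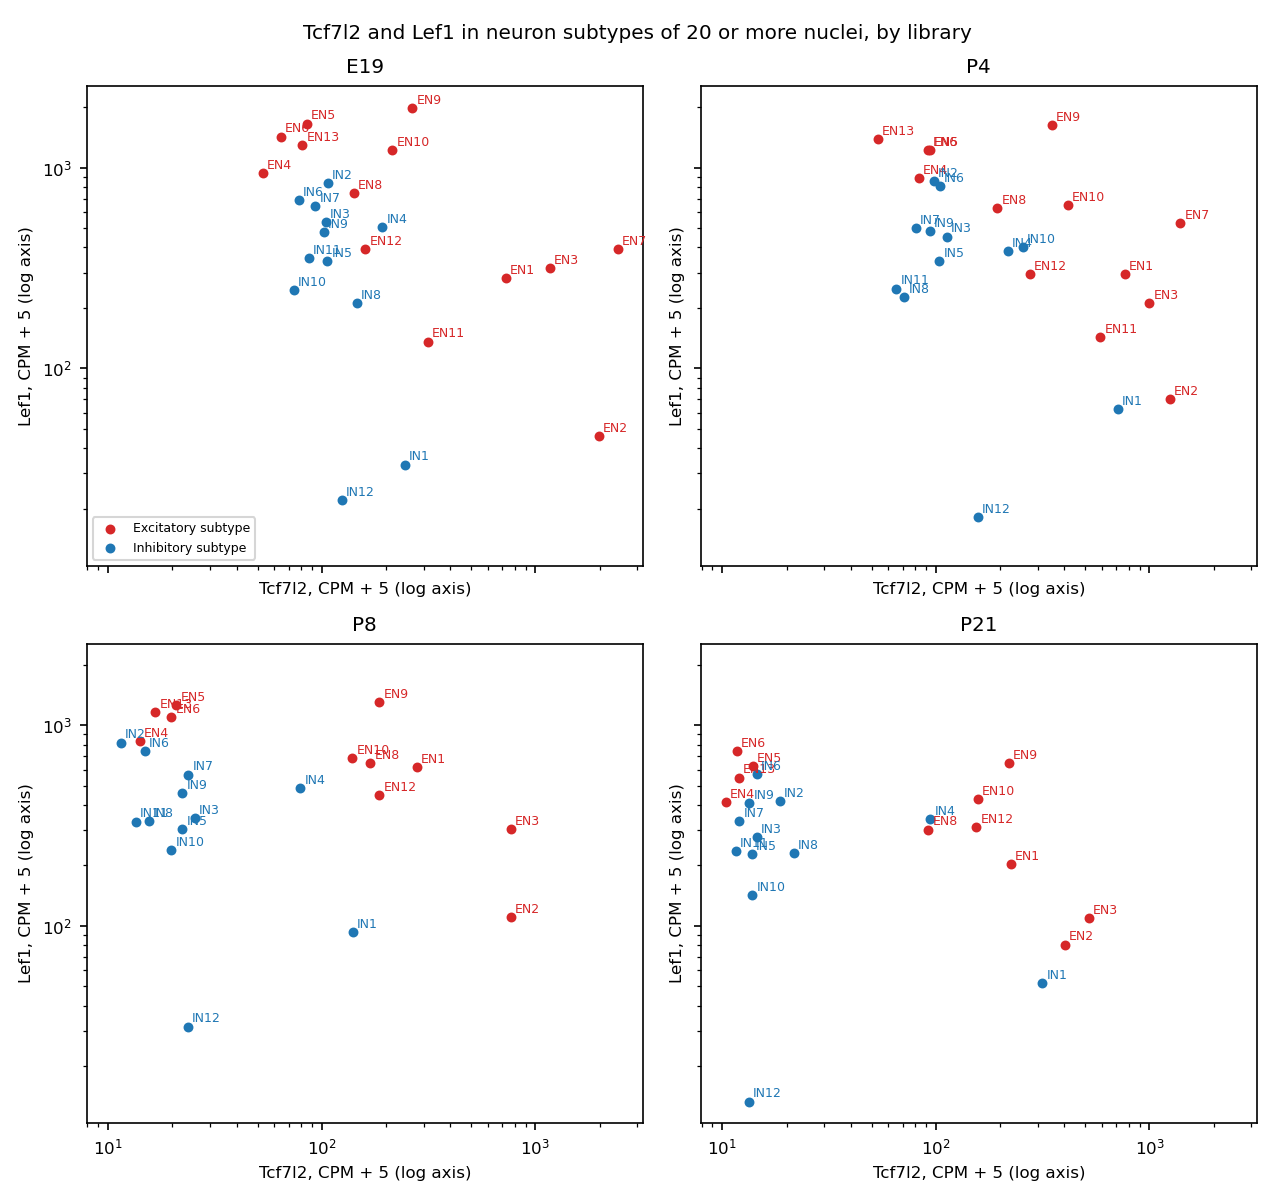
Lef1 against Tcf7l2 (CPM + 5, both axes log) in neuron subtypes with 20 or more nuclei, 1 panel per library; red points are excitatory and blue points inhibitory subtypes. EN2 sits at the lower right and EN4, EN5, EN6 and EN13 at the upper left in each panel, and Pearson's r over excitatory subtypes lies between -0.76 and -0.71.

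EN7 differed from all other neuron subtypes in Rnf220. It held 6131 CPM (5859 to 6413) in 33 nuclei at E19 and 3921 CPM (3848 to 3996) in 191 nuclei at P4, against 120 and 73.3 CPM in the other excitatory neurons. All 33 and all 191 nuclei had Rnf220 UMIs, from 7 to 156 per nucleus at E19 and from 7 to 173 at P4, so no small group of nuclei set the level. Ranked by the log2 ratio of EN7 over the other excitatory neurons, Rnf220 came first of 7624 genes at E19 and first of 7407 at P4, with ratios of 5.62 and 5.65. The share of genes higher in EN7 by 2-fold was 3.17% at E19 and 2.58% at P4. Clusters are built from such differences, so this rank is a description of EN7.

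Tcf7l2 was high in EN7 too, at 2423 and 1392 CPM against 837 and 633 CPM in the other excitatory neurons, with ranks of 77 and 157. Lef1 stood at 389 and 524 CPM against 412 and 436 CPM. At P8 and P21 EN7 held 1 nucleus each: that at P8 had 0 UMIs of all 3 genes and that at P21 had Rnf220 at 1641 CPM and Tcf7l2 at 740 CPM. The fall of EN7 to single nuclei thus took most Rnf220 UMIs out of the class: EN7 gave 58.6% of them at E19 and 92.5% at P4.

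EN7 passed the check of its class: Slc17a6 and Slc17a7 summed to 267 and 260 CPM, close to the 287 and 243 CPM of the other excitatory neurons, and the 3 inhibitory markers to 70.7 and 28.1 CPM. Myelinating markers (Mog, Mobp, Mag, Opalin) summed to 6.43 and 53.0 CPM, against 9.18 and 6.19 CPM in the other excitatory neurons, so EN7 stood higher at P4. Astrocyte markers (Aqp4, Gja1, Slc1a3, Aldoc) summed to 296 and 76.0 CPM, against 42.2 and 43.9 CPM in the other excitatory neurons. The part of nuclei or RNA of these glial types in the Rnf220 level of EN7 was not tested. Astrocytes themselves held Rnf220 at 165 and 93.1 CPM.

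Because Tcf7l2 marks the thalamus and habenula, 18 genes of those regions and the pretectum were listed. At each stage 9 of them reached 20 CPM in EN7 or in the other excitatory neurons. Of these 9, at E19, 5 were higher in EN7 by 2-fold and 1 lower, with a median of 1.09, where 3.17% of all genes were higher and 5.75% lower. At P4, 4 were higher and 1 lower, with a median of 0.69, where 2.58% of all genes were higher and 3.83% lower. Over all 18, with no minimum level, 6 were higher and 3 lower at E19, and 4 and 1 at P4, with medians of 0.26 and -0.11. A gene could reach 20 CPM on 1 side alone. Plekhg1 at both stages and Synpo2 at E19 did so in EN7, and Pou4f1 at both stages in the other excitatory neurons. The counts over the 9 therefore depend on that filter and are a description only. Synpo2 stood at 125 and 220 CPM against 8.29 and 20.4 CPM, Ntng1, a membrane-anchored netrin, at 3618 and 3506 against 921 and 1046 CPM, and Prox1 at 67.5 and 152 against 29.0 and 27.6 CPM. Rora, which thalamic neurons are known to express, did not set EN7 apart, at 2002 and 1630 CPM against 1944 and 1856 CPM. Lhx9 stood at 119 and 131 against 185 and 136 CPM, and Lhx2 at 112 and 37.8 against 57.9 and 50.5 CPM. Irx1, Irx2 and Irx3 were under 20 CPM in both and lower in EN7 at both stages. The habenular genes Gng8, Gpr151 and Tac2 were at or near 0, and Pou4f1 was at 0 and 1.80 CPM against 35.8 and 25.3 CPM. How much of the library came from tissue next to the superior colliculus was not tested.

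Outside EN7, Rnf220 in neurons was low and uneven. EN2 stood at 143, 197, 189 and 21.6 CPM, and the 10% of its nuclei with most UMIs held 87.8%, 86.5% and 92.9% of the UMIs at the first 3 stages. EN1 stood at 122, 87.1, 31.0 and 99.1 CPM, with 86.6%, 75.3%, 52.1% and 75.7% in the same share of nuclei. EN11 had 401 CPM at E19, with 90.6% of it in 9 of 84 nuclei, and 33.1 CPM at P4. At P21 the 9 EN11 nuclei, too few for a level here, gave 129 of the 871 Rnf220 UMIs of excitatory neurons (14.8%). More nuclei of these subtypes were without a Rnf220 UMI than with one, apart from EN1 at P21. EN11 at P21 was left out of that comparison. EN11 at P4 had 17 UMIs in 52 nuclei and EN2 at P21 had 16 in 36. Such counts are too low to show how evenly the nuclei shared the level. Among the inhibitory subtypes IN1 stood at 174, 102, 22.0 and 26.0 CPM, at or below the free-RNA reference at P4 and P21. At P4 Rnf220 was at or below it in all 12 inhibitory subtypes and in 10 of 13 excitatory subtypes, with EN1, EN2 and EN7 above. At E19 the counts were 10 of 12 and 1 of 13, and at P8 they were 1 of 12 and 0 of 11. At P8 Rnf220 was thus above the reference in nearly all subtypes.

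From P8 to P21 Rnf220 was higher in 4 of 11 excitatory and in 6 of 12 inhibitory subtypes, and lower in EN2, as the library went from 46.1 to 368 CPM. At P21 it was at or below the free-RNA reference in 10 of 11 excitatory subtypes, with EN1 above it, and in 4 of 12 inhibitory subtypes. Myelinating markers moved alongside, from 4.17 to 41.9 CPM in excitatory and from 6.14 to 45.3 CPM in inhibitory neurons. Their part in these steps was not tested.

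In the oligodendrocyte lineage, Tcf7l2 and Rnf220 marked successive states. Tcf7l2 in oligodendrocyte precursors (OPC) stood at 645, 541, 429 and 414 CPM. In committed oligodendrocytes it stood at 3190, 2584 and 2687 CPM at P4, P8 and P21, on 12, 33 and 55 nuclei. In the 187 myelinating oligodendrocytes of P21 it was 79.1 CPM (65.8 to 94.3). The committed state thus lay above OPC at P4, P8 and P21 and above myelinating nuclei at P21, with no overlap of the intervals. The single myelinating nucleus of P8 was unlike those of P21, with 31 Tcf7l2 UMIs (2731 CPM).

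Rnf220 was low in OPC at all stages, at 47.2, 83.2, 31.2 and 53.4 CPM. In committed oligodendrocytes it stood at 204 CPM at P4, where 9 of 12 nuclei had none. The 2 highest of those nuclei held 91.7% of the UMIs, and the highest had 10. In the same state it stood at 19.0 CPM at P8, where 4 of 33 nuclei had a single UMI, and at 2641 CPM (2499 to 2790) at P21. In myelinating oligodendrocytes it reached 5266 CPM (5153 to 5381), and all 187 nuclei had at least 8 UMIs, with a median of 39. For comparison, 8 of 33 microglial nuclei (24.2%, 11.1 to 42.3) had an Rnf220 UMI in that library, at a median depth of 2994 against 7860 UMIs. The single myelinating nucleus of P8 had 2 Rnf220 UMIs.

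The committed nuclei of P21 were a mixed group in Rnf220. Of 55, 18 had no UMI, the median was 1 and the highest nucleus had 131. Myelinating markers summed to 424, 328 and 5200 CPM in committed nuclei at P4, P8 and P21, and to 8973 CPM in myelinating nuclei, so they stood higher in the same library in which Rnf220 did. Committed markers (Bmp4, Gpr17, Enpp6, Fyn) summed to 4870, 6371 and 4943 CPM. Tcf7l1 went the way of Tcf7l2, at 54.6 to 86.8 CPM in OPC, 611, 385 and 368 CPM in committed and 97.6 CPM in myelinating nuclei, and Lef1 stayed at 47.6 CPM or below in OPC, committed and P21 myelinating nuclei.

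**Figure D5:**
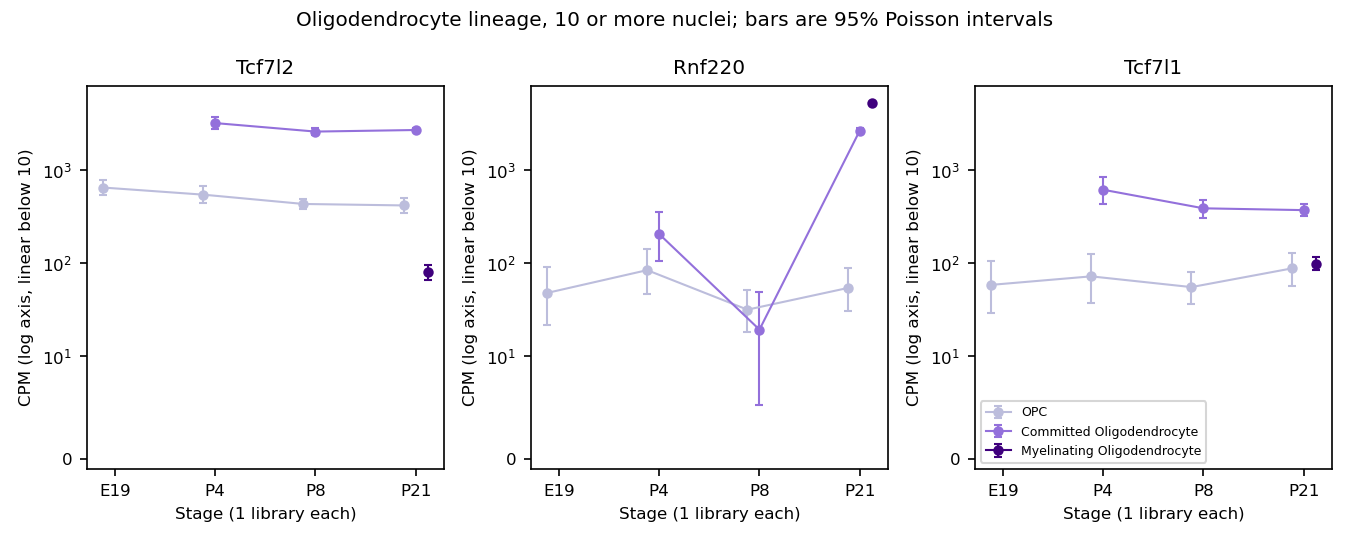
Level of Tcf7l2, Rnf220 and Tcf7l1 (CPM, log axis that is linear below 10) by stage in oligodendrocyte precursors, committed and myelinating oligodendrocytes with 10 or more nuclei; points are single libraries and bars 95% Poisson intervals. Tcf7l2 and Tcf7l1 are highest in committed nuclei, and Rnf220 is highest in myelinating nuclei at P21, at 5266 CPM.

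The deposited names of the non-neuronal classes were set against their markers, and some did not match them alone. Nuclei called epithelial had epithelial markers (Ttr, Foxj1, Folr1, Ccdc153) at a sum of 0, 111, 4.80 and 7.28 CPM, and leptomeningeal markers at 262 to 614 CPM. Under that label, 13 to 40 nuclei per library held Tcf7l2 at 647, 687, 686 and 775 CPM and Tcf7l1 at 517, 296, 413 and 397 CPM. Their Rnf220 at P4, 554 CPM, came from 2 of 17 nuclei. Vascular leptomeningeal nuclei held their own markers at 1319 to 3360 CPM and astrocyte markers at 1361 to 3160 CPM. The 10% of them with most Rnf220 UMIs held 35.5% to 53.7% of the total.

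Other genes of the pathway were counted over the same steps. The 6 lists used held 110 Wnt genes other than the members: ligands, receptors, secreted modulators, the β-catenin destruction complex, TCF cofactors, and feedback targets. From P4 to P8 in excitatory neurons 47 reached 20 CPM, 2 were higher by 2-fold (Lgr5, an R-spondin receptor, and Dkk2, a Wnt antagonist), against 0.361% of all genes, 0 were lower, against 0.832%, and the median log2 ratio was -0.0016 against -0.06 over all genes. In inhibitory neurons 0 of 45 passed in either direction, against 0.136% of all genes higher and 0.382% lower, with a median of -0.01 against -0.06. From E19 to P4, 0 of 44 passed in excitatory neurons, against 0.472% higher and 0.701% lower. In inhibitory neurons 1 of 44, Lgr5, was higher, against 0.436%, and 0 were lower, against 0.582%. From P8 to P21, 0 of 45 passed in either class. The shares of all genes were 2.15% higher and 3.2% lower in excitatory and 2.62% and 3.28% in inhibitory neurons.

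Over the whole span from E19 to P21, more of them passed, at about the share of all genes. In excitatory neurons 1 of 44 was higher (Lgr5), against 5.35% of all genes, and 4 were lower (Wnt4, Apc2, Ctbp1 and Bcl9), against 10.7%. In inhibitory neurons 1 was higher (Lgr5), against 5.83%, and 6 were lower (Fzd1, Ctnnb1, Ctbp1, Apc2, Aes and Ctnnbip1), against 11.3%. Of the members, Tcf7l2 and Rnf220 were lower over that span in both classes. Lgr5 went from 7.72 to 45.6 CPM in excitatory and from 18.1 to 88.1 CPM in inhibitory neurons.

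By role, the genes with the largest steps were these. Of 19 ligands only Wnt4 reached 20 CPM in excitatory neurons, at 25.8 CPM at P4 and 18.6 CPM at P8, and 4.11 CPM at P21. Among receptors, the Frizzled Fzd3 went from 60.5 to 47.2 CPM and the co-receptor Tspan12 from 26.0 to 46.6 CPM from P4 to P8, and Ror1 went from 44.6 to 20.1 CPM in inhibitory neurons. In the destruction complex and β-catenin itself, Ctnnb1 went from 108 to 86.7 CPM in excitatory neurons, and from 140 at E19 to 61.2 CPM at P21 in inhibitory neurons. Among cofactors, the Groucho repressor Tle1 went from 66.6 to 36.1 CPM from P4 to P8 in excitatory neurons, a log2 ratio of -0.80 (-0.94 to -0.67). Of 12 genes tied to Rnf220, 3 reached 20 CPM in neurons: Gli3, the hedgehog pathway factor, went from 89.4 at E19 to 24.0 CPM at P21 in inhibitory neurons, while Usp7 stood at 114 and 115 CPM, and Sin3b went from 61.2 at P4 to 55.4 CPM at P8.

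Among feedback targets, which the pathway is known to switch on, endothelial cells had the highest median over the 4 libraries in 5 of 14. The share of all genes that were highest in endothelial cells was not counted, so this number is a description only. It was 456 CPM for Apcdd1, 420 for Nkd1 and 97.2 for Notum, against 107, 127 and 16.4 CPM in vascular leptomeningeal cells, which came next. Tnfrsf19, at 243 CPM, hardly differed from the 241 CPM of leptomeningeal cells, and Ccnd1 stood at 102 CPM. The ranges over libraries of Nkd1, Notum and Tnfrsf19 overlapped between these 2 classes. Axin2 had its highest median in vascular leptomeningeal cells, at 113 CPM, Rnf43 in OPC, at 143 CPM, and Znrf3 in protoplasmic astrocytes, at 464 CPM. Endothelial cells, with 12 to 22 nuclei per library, were also the class with the most Lef1. In each library 2 or 3 of those nuclei held 46.7% to 71.4% of their Lef1 UMIs.

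Of all genes, Axin2 had the pattern most like that of Lef1 across neuron subtypes and stages. Axin2 encodes a scaffold of the destruction complex and is a textbook readout of β-catenin signalling. Over 94 units (1 subtype in 1 library, 20 or more nuclei, without EN7) and 11301 genes, Pearson's r of log2(CPM + 5) was 0.63, followed by Lingo2 at 0.60, Gm44593 at 0.58, Klhl5 at 0.58 and Cdon at 0.58. With EN7, over 96 units, Axin2 was again first at 0.59, and Col26a1 entered the first 5. Units of 1 library share its depth and its free RNA.

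Within libraries the relation of Axin2 to Lef1 had the same sign each time. Across excitatory subtypes r was 0.71, 0.53, 0.46 and 0.45 at the 4 stages, and across inhibitory subtypes 0.65, 0.81, 0.71 and 0.58. Spearman's rho was 0.72, 0.68, 0.63 and 0.64 across excitatory and 0.41, 0.40, 0.59 and 0.68 across inhibitory subtypes. EN8 departed from this, with the least Axin2 of the excitatory subtypes at P8 and P21, 28.4 and 28.3 CPM, beside Lef1 at 641 and 297 CPM. For Axin2 and Tcf7l2 it was -0.60, -0.53, -0.33 and -0.33 across excitatory subtypes and -0.72, -0.44, 0.15 and -0.05 across inhibitory subtypes. EN9 had Axin2 at 96.0, 110, 86.4 and 36.6 CPM, and EN2 at 18.8, 37.8, 48.2 and 33.8 CPM. IN3 had the most among inhibitory subtypes in each library, at 79.5, 126, 92.3 and 68.2 CPM, with Lef1 at 530, 448, 338 and 273 CPM. The RefSeq window of Axin2 held no TCF/LEF core.

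The gene most like Tcf7l2 was Cbln2, a secreted synapse organiser, at 0.71 without EN7 and 0.72 with it. Sptbn1, Nxph4, Frrs1 and Clmp followed without EN7, at 0.63, 0.60, 0.58 and 0.58, and Kcnk10 entered the first 5 with EN7, at 0.60. Cbln2 in EN2 stood at 139, 125, 89.6 and 45.9 CPM and in EN5 at 17.4, 17.8, 7.93 and 8.01 CPM, so it was lower at P21 than at E19 in EN2, as Tcf7l2 was.

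For Rnf220 the most alike genes turned on EN7. With it, they were Gm12828 at 0.84, Slc6a4 at 0.75, Slc18a2 at 0.66, 9330185C12Rik at 0.62 and Gckr at 0.60. Gm12828 lies within Rnf220 on the opposite strand, and the use of strand in counting is not stated in the sources, so its UMIs may come from Rnf220. Slc6a4 encodes the serotonin transporter and Slc18a2 the vesicular monoamine transporter. In EN7, Slc6a4 stood at 32.1 and 58.0 CPM and Slc18a2 at 86.8 and 164 CPM at E19 and P4, while EN11, the next in Slc6a4 at E19, had 18.9 CPM. Without EN7 the list was another: 9030622O22Rik at 0.61, Mapk15 at 0.50, Crh at 0.48, Glis3 at 0.46 and Dchs2 at 0.45, with none of the first 5 in common.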

How the data were processed

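Nuclei of the superior colliculus were profiled with 10x Genomics 3′ v3 chemistry, and the authors deposited raw UMI counts per gene and nucleus with a class and subtype for each. The authors' table also gives the percent of mitochondrial UMIs per nucleus, which was not used here. Per the submitters' processing notes, Cell Ranger 3.0.2 and mm10 were used. How nuclei and doublets were filtered, how classes were named, and whether counting used strand are not given in the sources used here.

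Counts were summed per library and class or subtype and divided by all UMIs of those nuclei (CPM), with exact Poisson intervals. Steps are log2 ratios of CPM + 5, and shares have exact Clopper-Pearson intervals. With 1 library per stage no test across genes and no p-value was possible, and the intervals cover counting error only. The calculation was tested on simulated data. Subtypes needed 20 nuclei in a library (10 outside neurons), and genes 20 CPM in the higher stage. Python 3.11.15, numpy 2.4.6, scipy 1.17.1 and pandas 2.3.3 were used.

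The members and gene lists were chosen with earlier results of these data known. The genes named are the members, the 5 genes most alike to each of Tcf7l2, Lef1 and Rnf220 with and without EN7, and the largest rise and fall of each list. Other list genes were named after their values were seen. Alternatives were other pseudocounts, weightings, scaling, thinning to 2300 UMIs, and leaving out EN7, IN1 or the top nucleus.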

Additional observations from a re-analysis of the deposited data

Results flagged for a closer look

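In 3 steps a gene moved one way in excitatory neurons and the other way in inhibitory neurons. With 1 library per stage these differences were not tested. Tcf7l2 from E19 to P4 had a log2 ratio of CPM + 5 of -0.18 in excitatory and 1.05 in inhibitory neurons. From P8 to P21 it had -0.21 and 0.99. Rnf220 from E19 to P4 had 1.47 in excitatory and -0.46 in inhibitory neurons. Without EN7 the Rnf220 step in excitatory neurons was -0.67, the same sign as in inhibitory neurons. Without IN1 the Tcf7l2 steps in inhibitory neurons were 0.05 from E19 to P4 and 0.05 from P8 to P21.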

How the results depend on the processing

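Of 64 alternatives, 26 left a value within its counting interval or a count within 1.5 times, 35 moved it and 3 reversed it. Leaving out IN1 and using P4 shares of subtypes were chosen after seeing the data. The causes of the shifts were not tested.

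The log2 steps of Tcf7l2 in inhibitory neurons from E19 to P4 (1.05) became 0.92 with each nucleus weighted alike, 0.51 with subtypes alike, 0.83 after thinning and 0.050 without IN1. From P4 to P8 (-3.43) they became -3.61 and -2.93 with pseudocounts of 1 and 20 CPM, -3.20 with nuclei alike, -2.33 with subtypes alike, -3.18 after thinning, -2.32 without IN1 and -2.33 with P4 shares. Tcf7l2 in excitatory neurons from P4 to P8 (-1.74) became -1.68 with a pseudocount of 20 CPM, -1.80 with nuclei alike, -0.83 with subtypes alike, -1.68 with median-of-ratios scaling, -1.45 without EN7 and -1.06 with P4 shares. Lef1 there (0.73) reversed to -0.0054 with subtypes alike and became 0.80 with median-of-ratios scaling, 0.78 without EN7 and 0.43 with P4 shares. Rnf220 from E19 to P4 (1.47) reversed to -0.66 with subtypes alike and -0.67 without EN7. From P4 to P8 (-4.35) it became -4.50 and -3.91 with pseudocounts of 1 and 20 CPM, -4.18 with nuclei alike, -0.33 with subtypes alike, -4.53 without the top nucleus of each library, -1.0 without EN7 and -0.67 with P4 shares.

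Wnt list genes past 2-fold in excitatory neurons from P4 to P8 (2) were 0 with a pseudocount of 20 CPM and 1 without EN7. From E19 to P21 (5) they were 9 with no minimum level and 1 with a pseudocount of 20 CPM, and in inhibitory neurons (7) they were 12 and 1. The share of inhibitory nuclei with a Tcf7l2 UMI went from 53.8% to 29.3% at P4 and from 14.6% to 5.24% at P8 after thinning. Levels under about 20 CPM rest on few UMIs in the smaller classes. No paired analysis was possible because each stage has 1 library.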
